A study of Mus musculus with 6 samples.

Results

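Aminoacyl-tRNA synthetases are the enzymes that load each amino acid onto its transfer RNA before the ribosome uses it. The genes described here are those whose description in the deposited tables holds the string "-tRNA synthetase", which found 39 of the 21899 genes listed. They were read in 2 groups of 3 samples of induced regulatory T cells (iTregs) from mice. The KO group came from Dlst-Treg iKO mice, and the WT group from iWT mice. Splenic CD4+ T cells of both groups had been held for 2 days in medium that polarises them to Treg cells, with 4-hydroxytamoxifen, the drug that switches on tamoxifen-inducible Cre. Cells that carried CD4, the FoxP3-GFP reporter and the red reporter tdTomato were then sorted and their mRNA was sequenced. Dlst is the gene of the succinyltransferase in the 2-oxoglutarate dehydrogenase complex of the TCA cycle, and the comparison asks how its loss in iTregs alters their transcripts. Both groups therefore share the drug, the culture and the sort, and the labels give Treg cells as the target of the knockout without naming the Cre driver.

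Animal cells keep separate sets of synthetases for the cytosol and for the mitochondrion, all encoded in the nucleus. The cytosolic enzymes supply the bulk of protein synthesis, and 8 of them sit in a multisynthetase complex. The mitochondrial enzymes serve the small set of respiratory chain subunits that mitochondria translate themselves. When amino acids run short, uncharged tRNA activates the kinase GCN2, and the transcription factor ATF4 then raises many cytosolic synthetase genes. By symbol and description the 39 genes divided into 22 cytosolic and 17 mitochondrial. By where the proteins are known to act there were 21 cytosolic enzymes, 16 mitochondrial enzymes and 2 editing-domain proteins, Aarsd1 and Prorsd1, which resemble parts of a synthetase but charge no tRNA. Tarsl2, a second cytosolic threonyl enzyme, has a symbol that ends in 2 and was moved to the cytosolic set by this reading, which is used below. Wars2, the mitochondrial tryptophan enzyme, falls outside the 39 because its description lacks the hyphen.

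Libraries held 33590510 to 49772670 estimated counts, and all 39 genes passed the filter on low counts, so none was lost to low levels. The labels do not say whether the 3 samples of a group are separate animals or separate cultures. The p-values therefore set the difference against a spread between samples that may be technical. Dlst itself averaged 128 CPM in KO and 153 CPM in WT samples, with no overlap between the groups (log2 fold change -0.26, SE 0.053, edgeR adjusted p = 0.0894). CPM are counts scaled to a common library size. That value counts reads over the whole gene, and reads over any deleted part were not counted separately. Treg and CD4 T cell markers were high in every library, with 8 of 8 detected and a summed level of 3250 to 3350 TPM in KO and 3330 to 3380 TPM in WT samples. By CPM 2 of the 8 were lower in KO without overlap, Cd4 (log2 fold change -0.19) and Cd3d (-0.075). Foxp3 (0.26) and Trac (0.49) were higher without overlap. Of all tested genes 22.8% did not overlap, and none of the 8 was called (lowest edgeR adjusted p = 0.111).

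The regulatory sequence that links synthetase genes to ATF4 is short and can be read directly. The letters TGATGNAA, the core of the amino acid response element bound by ATF4 with a C/EBP partner, were searched on both strands from 250 bases before to 50 bases after the gene starts in RefSeq (build GRCm38.p6). Of the 39 genes, 29 had such a window. The letters were found for 5 of 14 cytosolic enzymes with a window (Aars, Gars, Iars, Tars and Yars) and for 0 of 13 mitochondrial ones, against 3.97% of all 32851 windows in the table. CACGTG, the E-box that MYC and related factors bind, was found for 5 of the 29 (Aars, Ears2, Farsb, Iars and Tars), against 7.15% of all windows. For genes a match in any window of the gene was counted, while the shares over all windows count each window separately. The stretches that hold the response element are shown, since their genes are the ones whose transcripts a GCN2 response would be looked for in. They run 5′ to 3′ on the gene's strand, with TGATGNAA, on either strand, and CACGTG in capitals.
Aars (chr8:111033681-111033871, plus strand): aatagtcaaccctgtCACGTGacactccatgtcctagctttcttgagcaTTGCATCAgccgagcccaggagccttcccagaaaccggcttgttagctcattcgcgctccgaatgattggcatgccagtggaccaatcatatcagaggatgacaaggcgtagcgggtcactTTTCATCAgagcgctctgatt
Gars (chr6:55037956-55037993, plus strand): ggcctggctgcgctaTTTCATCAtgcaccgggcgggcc
Iars (chr13:49682046-49682159, plus strand): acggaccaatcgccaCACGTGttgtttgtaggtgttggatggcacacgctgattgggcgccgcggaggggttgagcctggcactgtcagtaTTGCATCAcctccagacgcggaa
Tars (chr15:11399629-11399688, minus strand): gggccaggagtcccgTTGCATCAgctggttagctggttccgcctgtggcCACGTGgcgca
Yars (chr4:129189891-129189928, plus strand): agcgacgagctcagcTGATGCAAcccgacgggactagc
Aars holds 2 copies of the element, at -112 and at 10 bases from the start, and Aars, Iars and Tars hold both motifs. The windows of Iars2, Fars2 and Mars2, whose transcripts are described below, held neither. A match is a description of the letters and not a measured binding site.

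Transcript levels set the cytosolic enzymes well above the mitochondrial ones. On the TPM scale, which divides counts by gene length and so allows genes to be compared, 20 of the 21 cytosolic enzymes had a mean level above that of Tars2, the highest mitochondrial one. Nars, the asparagine enzyme, led all 39 genes, with 334, 377 and 384 TPM in KO and 379, 361 and 376 TPM in WT samples. Gars, the glycine enzyme, followed with 249, 279 and 272 TPM in KO and 273, 272 and 283 TPM in WT samples. Sars, the serine enzyme, had 241, 260 and 261 TPM in KO and 258, 264 and 263 TPM in WT samples. Gars was above Sars in 6 of 6 samples, though their KO means differed by less than the SD of Gars in KO, and Nars lay above both throughout. Kars, the lysine enzyme, came next, with 193, 213 and 214 TPM in KO and 236, 205 and 218 TPM in WT samples. Kars and Gars are special in the family, because each gene encodes both the cytosolic and the mitochondrial form, and their values here cover both forms.

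At the low end of the cytosolic set, Farsa, the alpha subunit of the phenylalanine enzyme, had 70.1, 76 and 76.2 TPM in KO and 80.4, 76.7 and 79.7 TPM in WT samples. Wars1, the tryptophan enzyme, which interferon-gamma is known to induce in human cells, had 74, 76.9 and 78.9 TPM in KO and 76.4, 70.7 and 78.4 TPM in WT samples. Tarsl2 was the exception of the set, with 6.01, 5.75 and 6.81 TPM in KO and 6.39, 5.3 and 6.51 TPM in WT samples. Its level was below those of the mitochondrial enzymes among the 39 genes, except Mars2. Wars2, outside the 39, had a mean of 5.25 TPM over all 6 samples, beside 6.13 TPM for Tarsl2. Tarsl2 was far below Tars, the main threonine enzyme, which had 85.6 ± 6.37 TPM in KO and 89.4 ± 1.85 TPM in WT samples (SD, n = 3 each).

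Among the 16 mitochondrial enzymes Tars2 (threonine) was highest, with 55.1, 53.1 and 52.1 TPM in KO and 56.3, 51.1 and 53.7 TPM in WT samples. Iars2 (isoleucine) was next, with 35.3, 35.9 and 36.8 TPM in KO and 31.5, 29.1 and 32.3 TPM in WT samples. Rars2 (arginine) had 29, 33.6 and 33.9 TPM in KO and 31.6, 28.6 and 29.9 TPM in WT samples. Rars2 was close to Yars2 (tyrosine), the 2 having the same mean of 31.1 TPM over all 6 samples. The lowest were Mars2 (methionine), with 5.14, 4.77 and 5.04 TPM in KO and 4.64, 4.15 and 4.82 TPM in WT samples, and Ears2 (glutamate), with 6.84, 7.42 and 6.9 TPM in KO and 8.76, 7.43 and 7.43 TPM in WT samples. Pars2 (proline) had 9.04, 8.17 and 8.63 TPM in KO and 9.63, 7.66 and 9.28 TPM in WT samples. Summed over the set, mitochondrial enzymes had 306, 306 and 306 TPM in KO and 325, 285 and 307 TPM in WT samples. Cytosolic enzymes summed to 2630, 2890 and 2870 TPM in KO and 2950, 2800 and 2920 TPM in WT samples. The mitochondrial set thus gave 10.4, 9.59 and 9.63% of synthetase TPM in KO and 9.91, 9.25 and 9.5% in WT samples, and both sums overlapped between the groups.

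**Figure D1:**
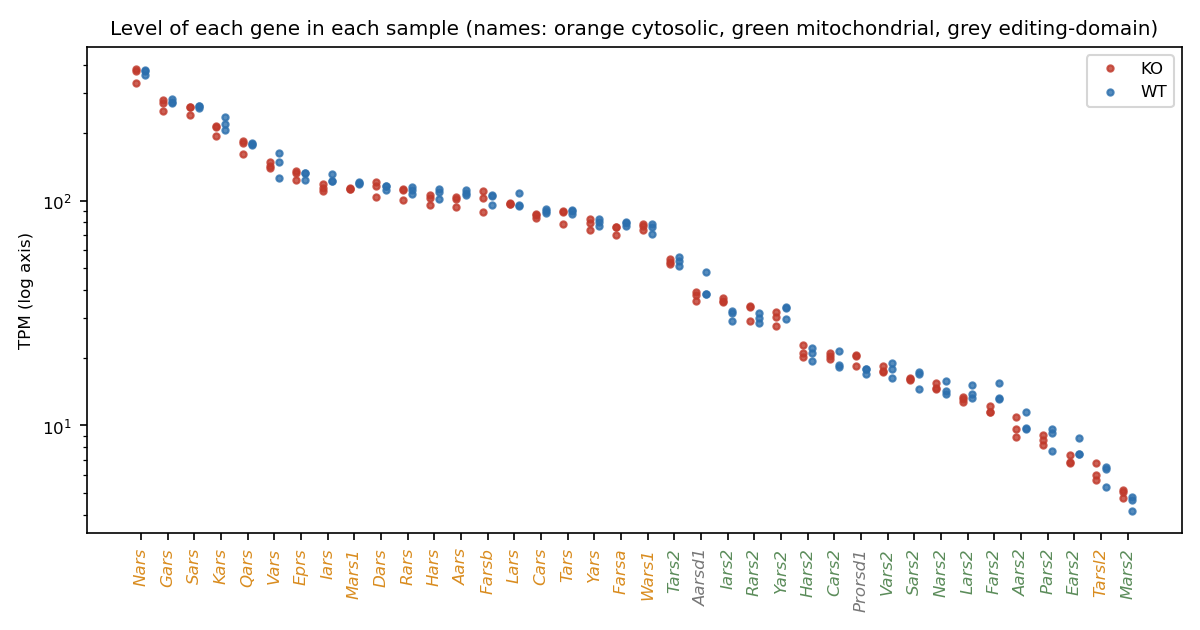
TPM (log axis) of 38 of the genes in each sample, ordered by the mean over 6 samples, with KO points in red at the left and WT points in blue at the right of each gene. Nars stands highest and Mars2 lowest, the KO and WT points of most genes overlap, and Tarsl2 is the 1 cytosolic enzyme among the mitochondrial ones.

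No synthetase gene passed the test between KO and WT samples. By edgeR's quasi-likelihood test, with p-values adjusted by the Benjamini-Hochberg method over 12768 genes and a threshold of 0.05, 0 of 39 were called, against a background of 0.674% of all tested genes (0.454% higher and 0.219% lower). At an unadjusted p under 0.05 there were 2 of 39 (5.13%), Iars2 higher and Fars2 lower, against 15.1% of all tested genes (8.47% higher and 6.6% lower). DESeq2, used as an alternative, called 1 of 39 (Iars2), against 3.04% of the 17443 genes to which it gave a p-value. That set is wider than the 12768 genes of edgeR, so the 2 shares over all genes are not directly comparable. All 3 KO samples lay on 1 side of all 3 WT samples for 7 of 39 genes (17.9%), against 22.8% of all tested genes (11.9% higher and 10.9% lower). Iars2, Mars2 and Prorsd1 were the 3 that were higher in this way, and Iars, Aars, Farsa and Fars2 were the 4 that were lower. Without replicate 1 of both groups, 17 of 39 did not overlap, against 50.4% of all tested genes. The log2 fold changes, KO minus WT, were above 0 for 12 genes and below 0 for 27, with a median of -0.04, beside -0.0029 over all tested genes. Of all 12768 tested genes, 6273 were above 0 and 6495 below.

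The intervals give a range for the difference of each gene. Like the p-values, they rest on the spread between samples, which may be technical. The 95% interval of the log2 fold change lay within 0.5 of 0 on either side for 38 of 39 genes. For 20 of the 21 cytosolic enzymes the interval lay within 0.25 of 0, the exception being the sparse Tarsl2, whose upper bound was 0.29. A miss of the threshold does not show that a gene was equal in the 2 groups. The intervals hold for 1 gene at a time and are not adjusted for the number of genes. In bulk samples, fewer cells of a type and less RNA per cell cannot be told apart.

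**Figure D2:**
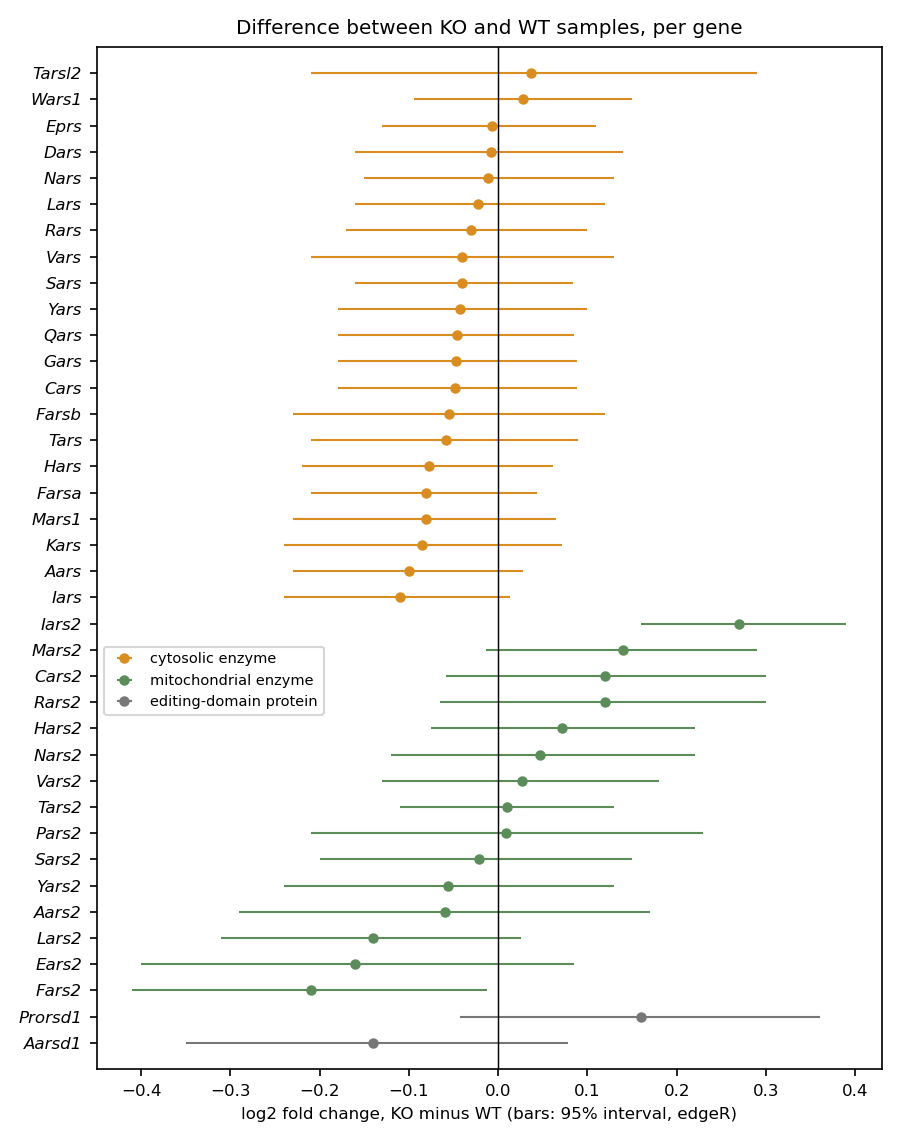
Log2 fold change, KO minus WT, of 38 of the genes (points) with its 95% interval (bars) from edgeR, with cytosolic enzymes at the top, mitochondrial enzymes in the middle and the 2 editing-domain proteins at the bottom. Iars2 at 0.27 has the interval farthest from 0, 19 of 21 cytosolic points lie below 0, and the mitochondrial points shown spread from -0.21 (Fars2) to 0.27.

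Iars2, which charges the mitochondrial isoleucine tRNA, had the lowest p-value of the 39. It had 92.4, 93.8 and 93.5 CPM in KO samples, against 78.3, 73.9 and 79.4 CPM in WT samples. The KO samples were close to each other and all above the WT samples. Means were 93.2 ± 0.694 CPM in KO and 77.2 ± 2.93 CPM in WT (SD, n = 3 each), a fold of 1.21 and a log2 fold change of 0.27 (SE 0.05, 95% interval 0.16 to 0.39). The unadjusted p was 0.000647 and the adjusted p 0.0688 by edgeR, so Iars2 was not called. Over the alternatives its log2 fold change ran from 0.21 to 0.29 and its adjusted p from 0.00131 with DESeq2 to 0.241. It passed with DESeq2, and without replicate 1 of both groups (log2 fold change 0.29, edgeR adjusted p = 0.017), a setting chosen after the data were seen in which 4.21% of tested genes passed.

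Iars2 lies on the minus strand of chromosome 1 from 185284726 to 185329396 (GENCODE M21, GRCm38), and its surroundings bear on how the count is read. Its last 2034 bases overlap the end of Rab3gap2, a subunit of a Rab GTPase regulator, which runs on the plus strand. Whether reads were counted by strand is not given in the sources used here, so reads in the overlap may belong to either gene. Rab3gap2 had a log2 fold change of -0.11 (SE 0.091, edgeR adjusted p = 0.604), opposite in sign to that of Iars2. On the other side, Bpnt1, a phosphatase gene on the plus strand that starts 2752 bases away, had a log2 fold change of 0.38 (SE 0.076, edgeR adjusted p = 0.0872), and it too missed the threshold. Eprs, the cytosolic enzyme for glutamate and proline, is the next gene along and had a log2 fold change of -0.007 (SE 0.053, edgeR adjusted p = 0.964).

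Other mitochondrial enzymes had values on both sides of 0. Of the 16, 9 had a log2 fold change above 0 and 7 below, with a median of 0.0093. Fars2, the phenylalanine enzyme, which in mitochondria acts as a single chain, had 11.1, 10.9 and 11.3 CPM in KO and 13.9, 12 and 12.6 CPM in WT samples. Each KO sample was below each WT sample, with WT replicate 1 highest. Its log2 fold change was -0.21 (SE 0.085, unadjusted p 0.0392, edgeR adjusted p = 0.305). Fars2 (chromosome 13, 36117412 to 36726280, plus strand) overlaps Lyrm4 and Nrn1 on the minus strand. Mars2, the methionine enzyme, had 33.3, 31.1 and 32.8 CPM in KO and 29.9, 27.4 and 31 CPM in WT samples. The gap between the groups was narrow, with 31.1 CPM in the lowest KO and 31 CPM in the highest WT sample (log2 fold change 0.14, SE 0.066, edgeR adjusted p = 0.371).

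WT replicate 1 was the highest library for 8 of the 16 mitochondrial enzymes, among them Ears2, Fars2 and Lars2, and WT replicate 2 was the lowest for 8. Shares over all tested genes were not worked out for these counts. Lars2, the leucine enzyme, had a log2 fold change of -0.14 (SE 0.072, edgeR adjusted p = 0.405). Ears2 had a log2 fold change of -0.16 (SE 0.10, edgeR adjusted p = 0.522). Rars2 and Cars2 (cysteine) each had 0.12, with SE of 0.079 and 0.077. Nars2, Vars2, Tars2, Pars2, Sars2, Yars2, Aars2 and Hars2 had log2 fold changes between -0.06 (Aars2) and 0.071 (Hars2). Hars2 shares 198 bases with Hars, which runs the other way on chromosome 18, so counts of the pair may be split between them.

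**Figure D3:**
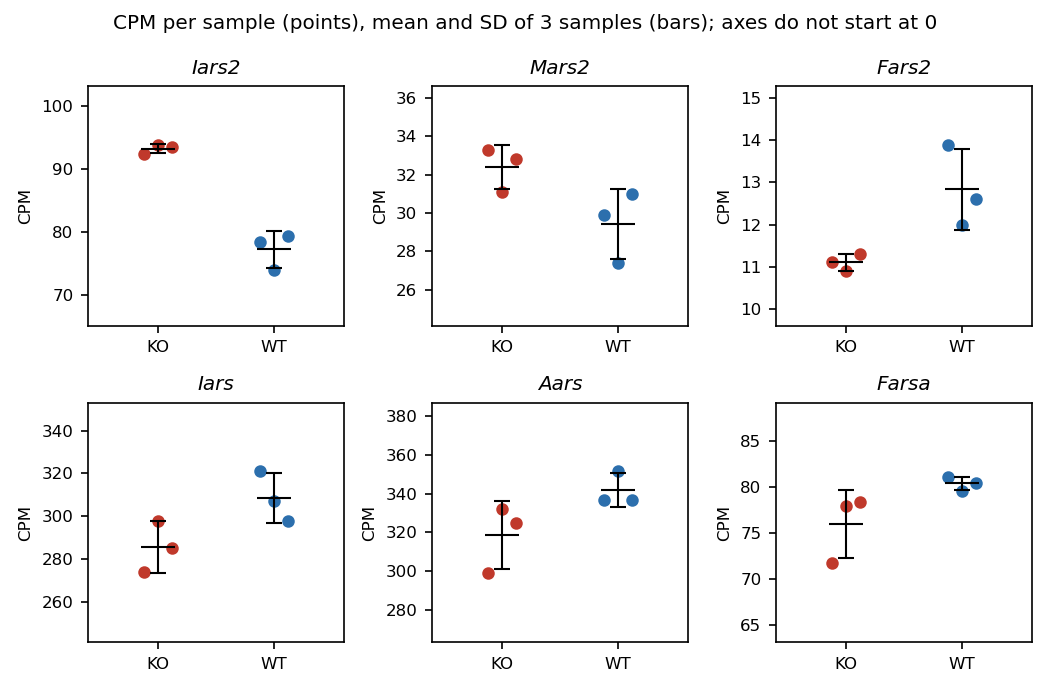
CPM in each sample (points) with the mean and SD of 3 samples (black bars) for 6 enzyme genes whose groups did not overlap, KO in red at the left and WT in blue at the right; axes do not start at 0. The KO samples of Iars2 lie between 92.4 and 93.8 CPM, above WT samples of 73.9 to 79.4 CPM, while for Mars2, Iars and Farsa the groups nearly touch.

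Most cytosolic enzymes had slightly lower point values in KO samples, and 1 library held most of the difference. Of the 21, 19 had a log2 fold change below 0, with a median of -0.046 and a range from -0.11 to 0.037, and the lowest edgeR adjusted p among them was 0.378. KO replicate 1 was the lowest of the 6 libraries for 17 of the 21 enzymes, and WT replicate 2 was the lowest for the other 4. Over all 12768 tested genes KO replicate 1 was the lowest for 3398. The median deviation of the set from each gene's own mean was -0.12, 0.021 and 0.0086 (log2) in KO replicates 1 to 3 and 0.03, 0.0055 and 0.032 in WT replicates 1 to 3. Without KO replicate 1, 12 of 21 enzymes were below 0 and the median over the 22 cytosolic genes by symbol was -0.003, beside -0.047 with all samples. Without replicate 1 of both groups, 11 of 21 were below 0 and that median was -0.002.

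KO replicate 1 also differed from the other samples in transcripts of other cell types. Neutrophil markers, of which 7 of 8 had enough counts to be tested, summed to 841, 196 and 185 TPM in KO and 87.6, 19.5 and 12.5 TPM in WT samples. Elane and Mpo, granule genes of neutrophil precursors, were at 0 in WT replicate 3, and Retnlg, a gene of mature neutrophils, was at 0 in WT replicates 2 and 3. Monocyte and macrophage markers, 5 of 9 tested, summed to 450, 113 and 127 TPM in KO and 35.4, 24.4 and 23.4 TPM in WT samples. B cell markers, 5 of 5 tested, summed to 29.1, 26.3 and 26.6 TPM in KO and 81.6, 26.8 and 13 TPM in WT samples, with WT replicate 1 highest. CD8 T and NK cell markers summed to 65.2 to 77.1 TPM in KO and 33.6 to 56.9 TPM in WT samples, dendritic cell markers to 3.62 to 5.17 TPM in KO and 2.11 to 2.71 TPM in WT samples, and erythroid markers to 0.565 to 1.28 TPM in KO and 1.67 to 2.89 TPM in WT samples. Of these marker genes Mrc1 (edgeR adjusted p = 0.0449) and Itgax (edgeR adjusted p = 0.0472) were called, both higher in KO. Itgax, 1 of the dendritic cell markers, averaged 2.52 TPM in KO and 0.825 TPM in WT samples. The other dendritic cell markers tested, Flt3, Xcr1 and Zbtb46, overlapped between the groups, with log2 fold changes of 0.24, 0.074 and -0.055. The part of these cells in the synthetase values was not tested.

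**Figure D4:**
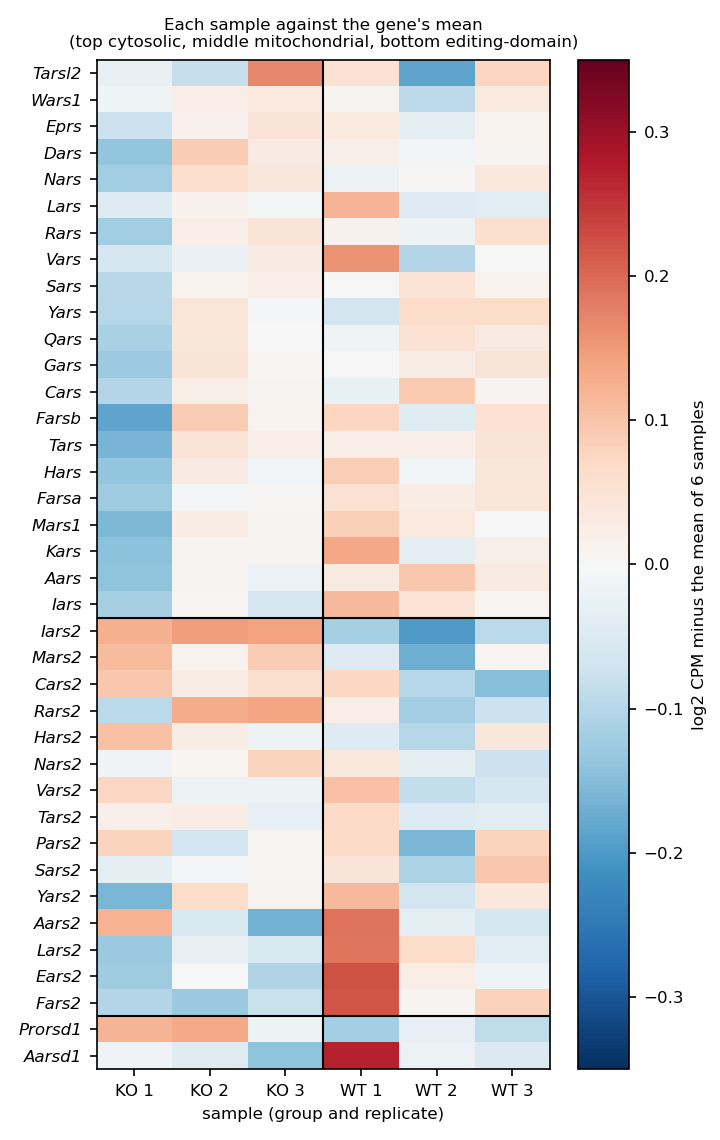
Log2 CPM of 38 of the genes in each sample minus the gene's mean over 6 samples (blue lower, red higher), with KO samples at the left and WT samples at the right, and cytosolic, mitochondrial and editing-domain genes from top to bottom. The column of KO replicate 1 is the lowest for 17 of 21 cytosolic enzymes, beside 3398 of all 12768 tested genes. The row of Iars2 is red in 3 KO and blue in 3 WT samples.

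Iars, the cytosolic isoleucine enzyme and a member of the multisynthetase complex, had the lowest log2 fold change of this set. It had 274, 298 and 285 CPM in KO and 321, 307 and 298 CPM in WT samples, and the highest KO and lowest WT samples both came to 298 CPM when rounded. Its log2 fold change was -0.11 (SE 0.055, edgeR adjusted p = 0.378). Aars, the alanine enzyme, had 299, 332 and 325 CPM in KO and 337, 352 and 337 CPM in WT samples (log2 fold change -0.10, SE 0.057, edgeR adjusted p = 0.434). Aars and Iars are both among the genes with a response element and an E-box printed above, as is Tars. Tars, Gars and Yars, the other genes found with the element, had log2 fold changes of -0.059, -0.047 and -0.043, with overlap between the groups. A link between motif and level was not tested. Farsa had 71.7, 77.9 and 78.4 CPM in KO and 81.1, 79.6 and 80.5 CPM in WT samples, the lowest being KO replicate 1 (log2 fold change -0.081, SE 0.054, edgeR adjusted p = 0.516).

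Farsa and Farsb encode the alpha and beta subunits that assemble into the cytosolic phenylalanine enzyme, and the ratio of their transcripts was similar in all samples. Farsb over Farsa TPM was 1.26, 1.45 and 1.35 in KO and 1.31, 1.25 and 1.33 in WT samples, so the groups overlapped. Kars had 225, 250 and 250 CPM in KO and 273, 243 and 252 CPM in WT samples (log2 fold change -0.085, SE 0.068, edgeR adjusted p = 0.596). Gars had 340, 383 and 373 CPM in KO and 371, 378 and 383 CPM in WT samples (log2 fold change -0.047, SE 0.058, edgeR adjusted p = 0.741). Wars1 and Tarsl2 were the 2 cytosolic enzymes above 0. Wars1 had 116, 119 and 120 CPM in KO and 118, 110 and 120 CPM in WT samples (log2 fold change 0.028, SE 0.053, edgeR adjusted p = 0.835). Mars1, the methionine enzyme, shares 68 bases with Ddit3 on the other strand, and its log2 fold change was -0.081 (SE 0.063, edgeR adjusted p = 0.584).

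The 2 editing-domain proteins lay on opposite sides of 0. Prorsd1, named for its likeness to a domain of prolyl enzymes, had 11, 11.1 and 10 CPM in KO and 9.33, 9.93 and 9.51 CPM in WT samples, a narrow gap without overlap. Its log2 fold change was 0.16 (SE 0.087, edgeR adjusted p = 0.435). Aarsd1, which resembles the editing domain of the alanine enzyme, had 34.1, 33.4 and 31.2 CPM in KO and 41.5, 33.9 and 33.2 CPM in WT samples. WT replicate 1 stood above the other 5, and the log2 fold change was -0.14 (SE 0.093, edgeR adjusted p = 0.527).

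For 13 amino acids a cytosolic gene was paired with a mitochondrial gene among the 39, with Tarsl2 left out for threonine. The ratio of each pair compares the compartments within each sample. Glutamate, proline and phenylalanine were not paired. Eprs serves both glutamate and proline, and the cytosolic phenylalanine enzyme has separate subunit genes. Tryptophan was not paired either, because Wars2 falls outside the 39. Averaged over the samples, cytosolic over mitochondrial TPM ran from 1.64 for threonine (Tars over Tars2) to 25.1 for asparagine (Nars over Nars2). For isoleucine the ratio of Iars to Iars2 was 3.1, 3.32 and 3.09 in KO and 4.17, 4.18 and 3.77 in WT samples. All 3 KO ratios lay below all 3 WT ratios, with means of 3.17 ± 0.131 in KO and 4.04 ± 0.232 in WT (SD, n = 3 each). For methionine the ratio of Mars1 to Mars2 was 22, 24 and 22.5 in KO and 25.8, 29.2 and 24.5 in WT samples. For arginine the ratio of Rars to Rars2 was 3.49, 3.29 and 3.33 in KO and 3.52, 3.73 and 3.82 in WT samples. These 3 pairs had lower ratios in KO with no overlap, 0 pairs had higher ratios with no overlap, and the other 10 overlapped. Among single genes, 22.8% of all those tested did not overlap in CPM, counting both directions. No such share was worked out for ratios of TPM, so the count of 3 of 13 is not read as a result. The ratios are given as values without a test, and those of isoleucine and methionine combine the genes already described.

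**Figure D5:**
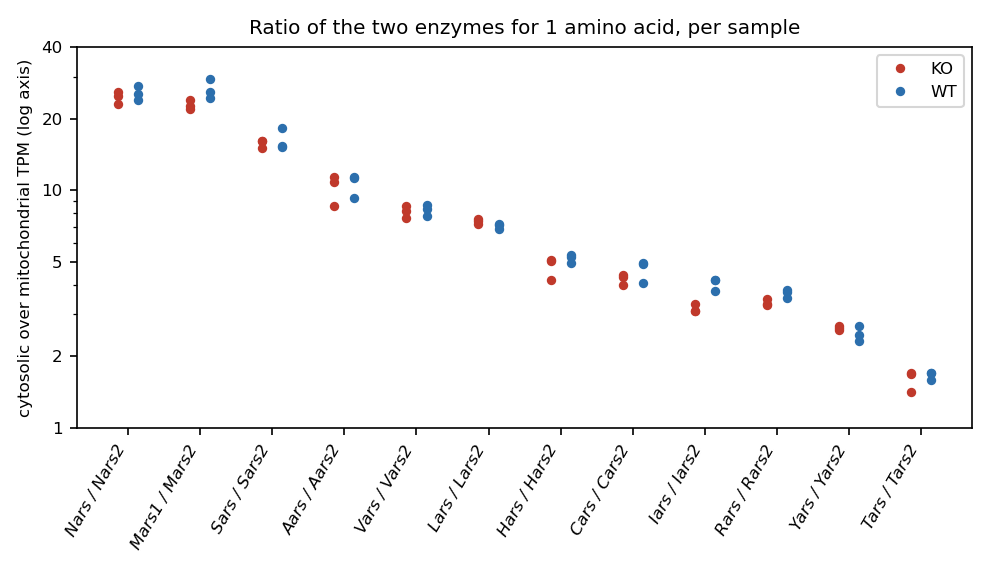
Ratio of cytosolic to mitochondrial TPM (log axis) for 12 of the amino acids paired in this way, 1 point per sample, with KO in red at the left and WT in blue at the right of each pair. The isoleucine pair shows the widest gap, with KO ratios of 3.09 to 3.32 below WT ratios of 3.77 to 4.18, and most other pairs overlap.

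Partners of the enzymes and their regulators were read in further lists, of 3 to 32 genes, in which edgeR called 0 genes. With 0.674% of all tested genes called, 0 calls in lists of this size is near the background and says nothing particular about them. In the multisynthetase complex 8 of 8 enzymes had a value below 0, beside 6495 of all 12768 tested genes. The median log2 fold change was -0.039 and the lowest unadjusted p by edgeR 0.073. KO replicate 1 was the lowest library for 7 of the 8, beside 3398 of all 12768 tested genes. The median was -0.003 without KO replicate 1 and 0.015 without replicate 1 of both groups. The scaffold proteins of the complex, Aimp1, Aimp2 and Eef1e1, had -0.025, -0.18 and -0.011. For Aimp2 the values were 31, 33.8 and 33.2 CPM in KO and 42.1, 34.5 and 34.2 CPM in WT samples (SE 0.09, edgeR adjusted p = 0.406). Synthetases fall into class I and class II by the fold of their catalytic site, and the medians were -0.043 over 9 cytosolic class I and -0.055 over 11 class II enzymes, with Eprs, which joins both classes, in neither. The 12 synthetases described as ATF4 targets had a median of -0.045. The enzymes of the complex, class and ATF4 target lists all belong to the cytosolic set. Their medians therefore had to fall in its range and are no separate result.

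The GCN2 and ATF4 genes, which respond when tRNA is uncharged, were tested for 31 of the 32 symbols listed, with 9 above 0, 22 below 0 and a median of -0.051. At an unadjusted p under 0.05, 2 were higher (Slc7a11 and Trib3) and 2 lower (Sesn2, log2 fold change -0.37, and the amino acid transporter gene Slc7a1, -0.14), 4 of 31 in all, beside 15.1% of all tested genes. Atf4 had 326, 362 and 354 CPM in KO and 369, 385 and 371 CPM in WT samples, lower in KO without overlap (log2 fold change -0.11, SE 0.057, edgeR adjusted p = 0.401). Eif2ak4, the gene of GCN2 itself, had a log2 fold change of -0.10 (SE 0.058, edgeR adjusted p = 0.465). Slc7a11, a cystine transporter that ATF4 is known to induce, had 16.5, 7.71 and 8.06 CPM in KO and 6.16, 5.16 and 5.38 CPM in WT samples. KO replicate 1 was far above the rest (log2 fold change 0.96, SE 0.30, edgeR adjusted p = 0.215). Trib3, a pseudokinase induced by ATF4, had 31.9, 31.4 and 29.8 CPM in KO and 23.6, 28.5 and 27 CPM in WT samples (log2 fold change 0.23, SE 0.079, edgeR adjusted p = 0.234). Asns, the asparagine synthetase that is a standard ATF4 target, had a log2 fold change of -0.18 (SE 0.093, edgeR adjusted p = 0.403).

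Of MYC and its partners, 9 of 10 were tested, with 6 above 0, 3 below 0 and a median of 0.026. Myc, which is known to raise synthetase genes in growing cells, had 378, 389 and 380 CPM in KO and 347, 365 and 377 CPM in WT samples (log2 fold change 0.076, SE 0.051, edgeR adjusted p = 0.524). Mxi1, a repressor that competes for MAX, had -0.20 (SE 0.11, edgeR adjusted p = 0.457), and Max had 0.10 (SE 0.058, edgeR adjusted p = 0.46). The 17 interferon-gamma response genes, listed because Wars1 belongs to that response, had a median of -0.11, with 5 above 0 and 12 below. At an unadjusted p under 0.05 there were 6 of 17, beside 15.1% of all tested genes, and none of the 6 passed after adjustment. The 2 higher ones were Socs1 and Psmb8, a subunit of the immunoproteasome (log2 fold change 0.22, SE 0.088, edgeR adjusted p = 0.296). The 4 lower ones were Tap1 and 3 genes of interferon-induced GTPases. Gbp2 had a log2 fold change of -0.45 (SE 0.16, edgeR adjusted p = 0.267), Iigp1 of -0.41 (SE 0.14, edgeR adjusted p = 0.25) and Gbp3 of -0.36 (SE 0.15, edgeR adjusted p = 0.31). Socs1, a feedback inhibitor of cytokine signalling, had 0.26 (SE 0.071, edgeR adjusted p = 0.171). Tap1, a peptide transporter of antigen presentation, had -0.17 (SE 0.051, edgeR adjusted p = 0.194).

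Steps next to charging were measured in 3 further lists. The 15 genes for quality control of charged tRNA and related steps, which include Aarsd1 and Prorsd1, had a median of -0.02. Sephs2, which makes the selenium donor for selenocysteine tRNA, had -0.12 (SE 0.056, edgeR adjusted p = 0.358), and Ptrh2, a peptidyl-tRNA hydrolase, had 0.15 (SE 0.077, edgeR adjusted p = 0.415). The 13 genes of the mitochondrial amidotransferase and of mitochondrial translation factors also had a median of -0.02. Gfm1, a mitochondrial elongation factor, had 68.4, 71.5 and 71.5 CPM in KO and 84.9, 73.3 and 78.1 CPM in WT samples (log2 fold change -0.16, SE 0.064, edgeR adjusted p = 0.3). Gatb, a subunit of the enzyme that makes mitochondrial glutaminyl-tRNA, had -0.16 (SE 0.11, edgeR adjusted p = 0.538). The 9 cytosolic elongation factor genes had a median of -0.0018. Among them Eef2k, the kinase that slows elongation, had 26.4, 21.3 and 22.1 CPM in KO and 16.3, 15 and 19.5 CPM in WT samples, higher in KO without overlap (log2 fold change 0.46, SE 0.12, edgeR adjusted p = 0.156). Eef1akmt1, a methyltransferase of elongation factor 1A, had 0.19 (SE 0.074, edgeR adjusted p = 0.282).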

How the data were processed

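Bulk mRNA libraries of 3 KO and 3 WT iTreg samples, grouped by sample title, were analysed from the deposited tables. The submitters' processing notes name FastQC and HISAT2 without versions. Not given in the sources used here are the genome build, annotation and counting program. The authors deposited, per the file headers, estimated counts per gene, which were not whole for 23.5 to 25.2% of genes, and TPM, which correct for gene length and library total. For 13 of the 39 genes counts had decimals, by at most 0.5 count.

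Estimated counts were rounded to whole numbers, 12768 of 21899 genes were kept by filterByExpr of edgeR 4.0.16, and libraries were scaled by TMM (factors 0.988 to 1.01). The quasi-likelihood test (two-sided, robust dispersion, genotype as the single term) compared KO with WT, with Benjamini-Hochberg adjustment over all tested genes and a threshold of 0.05. CPM are TMM-scaled. Medians over lists have no test. The code was tested on simulated data.

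The genes, lists and rules were chosen with earlier results of these data known. Values per sample were given by rule for genes at an unadjusted p under 0.05, for the 3 highest and 3 lowest enzymes by TPM in each compartment, and for Kars, Gars and Wars1; of each other list, the 2 genes of lowest p. Genes without overlap between groups, Aarsd1, Aimp1, Eef1e1, Atf4, Eif2ak4, Asns, Myc, Sesn2, Slc7a1, Gbp2, Gbp3, Iigp1, Psmb8, Mrc1, Itgax and the neighbours of Iars2 were added after their values were seen. Results of 1 of the 39 genes are not reported here. Positions come from GENCODE M21. No 2 samples of the same group agreed within sampling noise, and pairs across groups were not compared. Chi-square per degree of freedom, near 1 for sampling noise alone, was 3.83 for KO replicates 2 and 3. For the other pairs it ran from 16.69 (WT replicates 2 and 3) to 49.58 (KO replicates 1 and 2). Alternatives used DESeq2 1.42.0, limma 3.58.1 on log2(TPM + 1) and log2(TPM + 0.1), RLE and upper quartile scaling, other filters, no robust estimation, the replicate number as a term, KO replicates 2 and 3 summed, and each sample left out. Software was R 4.3.3 and Python 3.11.15 with pandas 2.3.3; figures were drawn with matplotlib 3.10.9.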

Additional observations from a re-analysis of the deposited data

How the results depend on the processing

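Of 663 pairs of a gene and an alternative, 622 kept direction and side of the threshold, 39 changed sign, all with sizes of at most 0.065 (log2), and 2, both Iars2, passed the threshold. The number called was 1 of 39 with DESeq2 and without replicate 1 of both groups, an alternative chosen after seeing the data, and 0 elsewhere. The number at an unadjusted p under 0.05 was 1 with upper quartile factors, DESeq2, no low-count filter and KO replicates 2 and 3 summed, and 1 to 3 with a sample left out. Over all genes the calls, 86 in the reported fit, fell to 10 without KO replicate 2 (8 higher, 2 lower), 4 without KO replicate 3 (3 and 1), 27 without WT replicate 2 (17 and 10), 16 without WT replicate 3 (11 and 5) and 8 with KO replicates 2 and 3 summed (6 and 2); DESeq2 made 531 and the fit without replicate 1 of both groups 538.

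Same-numbered samples correlated at 0.18, 0.08 and 0.08 in their deviations from group means, beside -0.15 to 0.11 for the other combinations. KO replicates 1 and 2 correlated best with the same number in WT, and KO replicate 3 with WT replicate 2 (0.11). The labels do not state that the numbers mark pairs, and the numbers were not taken as pairs. With the replicate number as a block, calls over all genes were 134 higher and 43 lower, beside 58 and 28 without it, 0 of 39 synthetase genes passed, and 1 GCN2 and ATF4 gene, Sesn2, passed. That list had 1 call (Slc7a11) with DESeq2 and without replicate 1 of both groups, the elongation factors 1 (Eef2k) with DESeq2, and the interferon-gamma genes 1 (Tap1) without replicate 1 of both groups and 0 to 1 (Gbp2, without WT replicate 2) with a sample left out. The quality control median was 0.019 without replicate 1 of both groups and -0.032 to 0.0053 with a sample left out, and the MYC median was -0.057 without replicate 1 of both groups. The causes were not tested.

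Without replicate 1 of both groups the sign turned for Dars (0.063), Eprs (0.043), Farsb (0.04), Kars (0.015), Lars (0.05), Nars (0.03), Rars (0.015), Vars (0.054), Sars2 (0.0041) and Yars2 (0.05). With limma on TPM it turned for Pars2 (-0.032 and -0.034) and Tars2 (-0.005 and -0.0051), at the pseudocounts of 1 and 0.1. With a sample left out, log2 fold changes spanned 0 for Dars (-0.056 to 0.057), Eprs (-0.032 to 0.028), Farsb (-0.12 to 0.02), Gars (-0.083 to 0.0038), Lars (-0.051 to 0.032), Nars (-0.046 to 0.044), Rars (-0.063 to 0.019), Tars (-0.10 to 0.0045), Vars (-0.10 to 0.032), Wars1 (-0.0067 to 0.052), Aars2 (-0.14 to 0.019), Pars2 (-0.065 to 0.05), Sars2 (-0.078 to 0.021), Tars2 (-0.0094 to 0.046), Tarsl2 (-0.041 to 0.085), Vars2 (-0.0086 to 0.087) and Yars2 (-0.10 to 0.0089). Among low genes Tarsl2 had an SE of 0.11 and Prorsd1 of 0.087, and the part of depth in these was not tested.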
